A study of Danio rerio with 33 samples.

Results

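The claudin genes of zebrafish are described here across whole embryos, ovary and testis. They were taken as every row of the deposited gene table whose symbol starts with cldn, which gave 33 of 30490 genes. The 7 embryo groups were at the 10-somite stage, with 3 biological replicates each: kctd15 mutants, and embryos of wild-type genotype injected with 100 pg kctd15, with 5 pg AP2 and 100 pg kctd15, with 5 pg AP2, with 5 pg AP2-P59 and 100 pg kctd15, with 5 pg AP2-P59, or with no injection named. The adult gonads came in 4 groups of 3 replicates, the ovary and testis of kctd15 mutant fish and the ovary and testis of wild-type fish. The labels name neither the mutated kctd15 gene or allele, the AP2 paralog, the change in AP2-P59, the strain nor the nucleic acid injected, and they list no control injection, so the wild-type embryos do not control for injection itself.

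Claudins are membrane proteins that join with claudins of the neighbouring cell into the strands of the tight junction, the seal that limits leakage between epithelial cells. Some members tighten the seal, and others, such as claudin-2 and claudin-15 in mammals, form pores for small ions and water. Teleost fish carry more claudin genes than mammals, and part of the zebrafish set has letters in place of the numbers of the mammalian family. Kctd15, a protein with a BTB domain, is known to hold back neural crest formation and to act on the transcription factor AP2, which works in both neural crest and epidermis.

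The 33 libraries held 15152199 to 24131756 estimated counts. Levels below are CPM, the counts scaled to library size, after TMM scaling, on a scale of its own for the embryos, for the gonads and for the 9 wild-type libraries of the tissue comparison, so that a wild-type library has slightly different values on different scales. The RNA is from whole embryos or organs, so fewer cells of a type and less RNA per cell cannot be told apart. A gene was called changed at an adjusted p under 0.05 in edgeR's quasi-likelihood test, with the adjustment over all genes tested. Marker genes matched the labelled gonads: 5 oocyte genes summed to 3950 to 5020 CPM in wild-type ovary and 26.4 to 37.8 CPM in wild-type testis, and 5 genes of spermatogenic cells to 107 to 158 CPM in ovary and 2270 to 2500 CPM in testis. The mutants did not have less kctd15a RNA in embryos, with 182 to 200 CPM in mutants and 39.4 to 56.5 CPM in wild type, and kctd15b was at 5.02 to 7.22 CPM in mutants and 3.70 to 4.28 CPM in wild type. In ovary kctd15b had 0.306 to 1.06 CPM in mutants and 2.05 to 4.98 CPM in wild type, and in testis 0.427 to 1.07 CPM in mutants and 0.582 to 2.02 CPM in wild type. Levels of kctd15a were 4.01 to 4.46 CPM in mutant testis and 2.04 to 3.92 CPM in wild-type testis. In ovary they were 0.184 to 0.265 CPM in mutants and 0 to 0.219 CPM in wild type. Mutant levels were thus below wild type without overlap for kctd15b in ovary. They were above it for both genes in embryos and for kctd15a in testis. The labels do not say which gene is mutated, so these levels do not check the mutant label.

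Of the 33 claudins, 28 passed the low-count filter in the embryo fit, 29 in the gonad fit and 29 in the tissue fit. The 5 left out in embryos were cldn7a, cldn11a, cldn15la, cldn15lb and cldn18, and the 4 left out in the gonads were cldn15lb, cldn19, cldn20 and cldnk. No member was at 0 in every library. In 2 cases a whole group had none: cldn15lb in the kctd15-injected embryos, where 0 counts allow up to 0.056 CPM over the group, and cldn19 in mutant ovary, where they allow up to 0.05 CPM (3 counts each, counting error only). The member cldnd1a encodes a claudin domain-containing protein and not a classical claudin.

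Several claudins sit side by side in the RefSeq gene table of the GRCz12tu assembly. The genes cldnj, cldne, cldnf and cldna follow each other with 0 other coding genes between them. In a second block cldnh, cldnc, cldnb and cldnd stand together with 1 other coding gene, cldn29, between the last pair. Neighbours such as cldn17 and cldn8, and cldn10b and cldn10l2, also lie directly beside each other. RefSeq enters cldn17, cldn8, cldnh and cldnc under the symbols cldn8.3, cldn8.1, cldn3c and cldn3d. RefSeq transcripts were found for 31 members, and for 26 of these the gene count was within 5% of the matched transcript. The other 5, cldn2, cldn10a, cldn15b, cldn17 and cldnk, have gene values that also hold counts of transcripts that were not matched. For 18 members the estimated transcript count was a whole number in every library. For cldna it was whole in 1 of the 33 libraries, and for cldn1, cldn10b, cldn11b, cldnd1a, cldnf and cldnj in 0, so that some reads of these genes were shared by estimation among similar transcripts.

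The claudin sets of ovary, testis and embryo differed in wild-type fish. In ovary against embryo, 6 claudins were higher and 16 lower among 29 tested, beside 69.8% of all genes changed (32.6% higher and 37.2% lower). In testis against embryo, 7 were higher and 15 lower, beside 67.0% of all genes changed (34.4% higher and 32.5% lower). The median claudin log2 difference was -1.87 in ovary and -1.05 in testis, where the medians of all genes were -0.18 and 0.07. Testis against ovary had 15 claudins higher and 5 lower of 29, beside 70.5% of all genes (41.6% higher and 28.9% lower), with a claudin median of 1.93 and a median of all genes of 0.72. With these many differences in the whole transcriptome, the counts alone say little about claudins, and the members' own levels follow. Tissue goes with age and dissection in these samples, and their parts cannot be told apart.

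**Figure D1:**
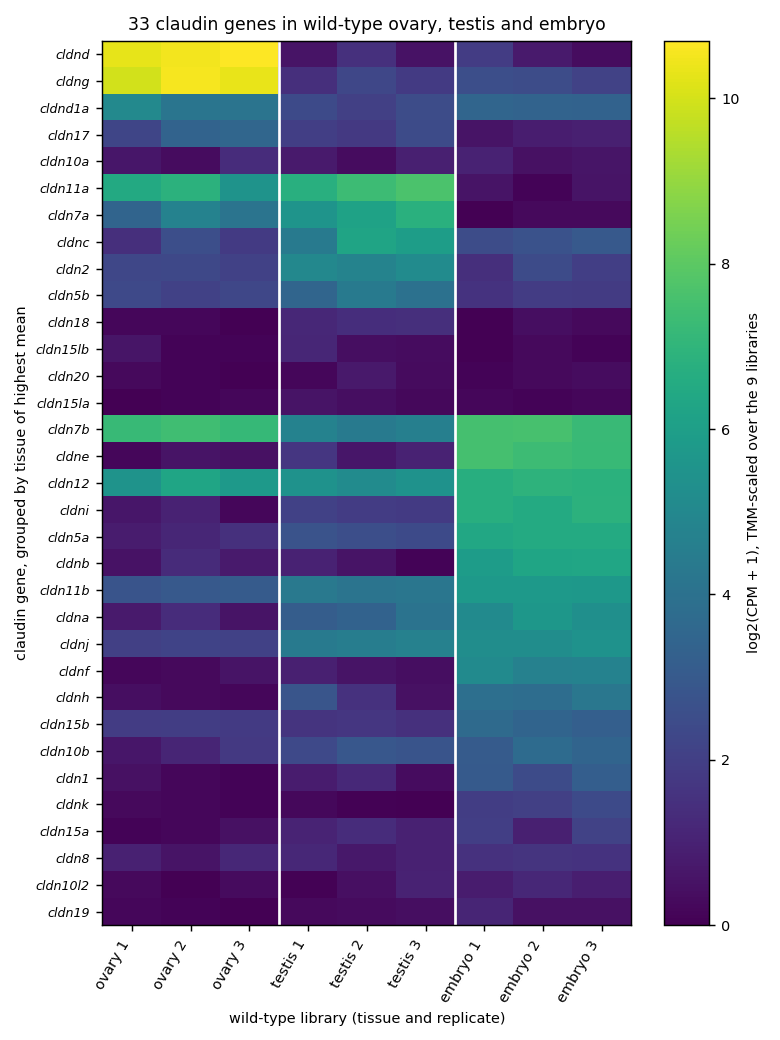
Level of the 33 claudin genes (rows, grouped by the tissue with the highest mean) in the 9 wild-type libraries (columns: ovary, testis, embryo), as log2(CPM + 1). The rows of cldnd and cldng are bright in the 3 ovary libraries and dark in testis and embryo, cldn11a and cldn7a are bright in both gonads, and the block from cldne downward is brightest in embryos.

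Ovary was set apart by cldnd and cldng. Expression of cldnd was 1260, 1450 and 1660 CPM in the 3 wild-type ovaries, 0.474, 1.83 and 0.417 CPM in the testes and 2.72, 0.73 and 0.264 CPM in the embryos. For cldng the libraries had 1000, 1480 and 1290 CPM in ovary, 1.68, 3.89 and 2.55 CPM in testis and 4.98, 4.64 and 3.30 CPM in embryos. Every ovary stood far above every other library for both genes. The log2 difference of ovary against embryo was 10.24 (SE 0.82, edgeR adjusted p = 1.8e-06) for cldnd and 8.19 (SE 0.38, adjusted p = 3.4e-08) for cldng. On the gonad scale, testis against ovary was -10.64 (SE 0.59, adjusted p = 3.3e-08) for cldnd and -8.85 (SE 0.55, adjusted p = 7.6e-08) for cldng. In testis neither differed past the threshold from embryos (log2 -0.42, adjusted p = 0.64, for cldnd and -0.67, adjusted p = 0.078, for cldng). With single libraries left out, cldng ran from -1.03 to -0.43 there, with edgeR adjusted p of 0.013 to 0.21. Its outcome thus depended on the library left out.

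The pair made up 87.8% ± 2.2 of all claudin counts in wild-type ovary, 0.75% ± 0.36 in wild-type testis and 0.581% ± 0.21 in wild-type embryos (SD, n = 3 each). Before TMM scaling, all claudin genes together had 2530 ± 380 CPM in ovary, 702 ± 160 CPM in testis and 804 ± 5.6 CPM in embryos (SD, n = 3 each). In ovary 3 members were enough to reach 90% of the claudin counts, and in testis and embryos 10 were needed. The neighbours of cldnd did not share its direction: in ovary against embryo, cldnh had a log2 difference of -5.98 (adjusted p = 1.6e-04) and cldnb of -6.33 (adjusted p = 6.9e-06), both lower, and cldnc of -0.89 (adjusted p = 0.14).

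Both gonads had 3 claudins above the embryos: cldn11a, cldn7a and cldn17. The share of all genes higher in both was not computed. In the embryo fit cldn11a and cldn7a failed the low-count filter, and they passed here through the gonads. The direction of their difference from embryos is therefore not an independent result. Claudin-11 is known in mammals from myelin and from the Sertoli cell barrier of the testis. Expression of cldn11a was 88.7, 118 and 44.2 CPM in ovary, 108, 160 and 205 CPM in testis and 0.466, 0.0663 and 0.462 CPM in embryos, with no overlap between gonads and embryos. Its log2 difference from embryos was 7.97 (SE 0.58, adjusted p = 7.1e-07) in ovary and 8.88 (SE 0.59, adjusted p = 5.4e-07) in testis, where it took more counts than any other claudin. The wild-type embryos held only 14 counts of it in all. Over the alternative fits the sizes ran from 5.83 to 8.33 in ovary and from 6.76 to 9.22 in testis. Testis against ovary gave 0.92 for cldn11a (adjusted p = 0.061), which did not pass. With single libraries left out the change ran from 0.61 to 1.25 with edgeR adjusted p of 0.032 to 0.21, so the outcome depended on the library left out.

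Levels of cldn7a, a paralog of the epithelial claudin cldn7b, were 9.95, 26.1 and 16.4 CPM in ovary, 45.6, 70.2 and 111 CPM in testis and 0, 0.199 and 0.198 CPM in embryos. Testis exceeded embryos by a log2 difference of 9.02 (SE 0.67, adjusted p = 1.1e-06) and ovary exceeded embryos by 6.91 (SE 0.66, adjusted p = 4.9e-06). The wild-type embryos held only 6 counts of cldn7a in all. Over the alternative fits the sizes ran from 5.87 to 9.37 in testis and from 3.86 to 7.27 in ovary. All testes were above all ovaries, at 2.12 (SE 0.48, adjusted p = 0.0018). The other paralog, cldn7b, was distributed the other way. It had 25.5, 20.4 and 23.7 CPM in testis, against 149, 170 and 144 CPM in ovary and 186, 190 and 150 CPM in embryos. It was lower in testis than in embryos (log2 -2.92, SE 0.17, adjusted p = 2.2e-07) and than in ovary (-2.73, SE 0.28, adjusted p = 4.1e-06), and ovary and embryos did not differ past the threshold (-0.18, SE 0.16, adjusted p = 0.33).

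Testis was higher than embryos, with ovary not called, for 4 members: cldn2, cldn5b, cldn18 and cldnc. The share of all genes with this pattern was not computed. Of the 4, cldn18 failed the filter in the embryo fit and passed here through the testes, so its direction is not an independent result. Expression of cldn2, whose mammalian counterpart forms a cation pore, was 30.8, 26.5 and 34.8 CPM in testis, 3.81, 4.05 and 3.24 CPM in ovary and 1.71, 4.44 and 2.91 CPM in embryos. The testes stood clear of all other libraries, with a log2 difference from embryos of 3.34 (SE 0.35, adjusted p = 1.1e-05). Values of cldnc spread widely within testis, with 19.8, 74.7 and 60.9 CPM, against 1.68, 5.01 and 2.55 CPM in ovary and 4.66, 5.57 and 6.87 CPM in embryos. Testis against ovary was 4.07 (SE 0.70, adjusted p = 2.6e-04) for cldnc, the largest rise among the claudins of that comparison with at least 1 CPM in the higher group, and 4.01 (SE 0.77, adjusted p = 6e-04) for cldn18, a claudin of stomach and lung in mammals. Next came cldna at 3.57 (SE 0.55, adjusted p = 1.1e-04) and cldnh at 3.56 (SE 0.90, adjusted p = 0.0037). Levels of cldn18 and cldnh were low. For cldn18 they were 1.29, 1.65 and 1.75 CPM in testis and 0.129, 0.137 and 0 CPM in ovary. For cldnh they were 6.07, 1.88 and 0.376 CPM in testis and 0.323, 0.206 and 0.154 CPM in ovary. With single libraries left out the change of cldnh ran from 2.25 to 4.08. Falls in testis after cldnd, cldng and cldn7b were led by cldnd1a, at -2.44 (SE 0.38, adjusted p = 1.3e-04). Genes of gonad support and steroid cells were also unequal between the gonads, with sums of 1460 to 2340 CPM over 6 genes in testis and 93.4 to 180 CPM in ovary. Their part in these claudin differences was not tested.

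A group of 13 claudins was lower in both gonads than in embryos: cldn1, cldn5a, cldn11b, cldn12, cldn15b, cldna, cldnb, cldne, cldnf, cldnh, cldni, cldnj and cldnk. Of all genes 37.2% were lower in ovary and 32.5% in testis, and the share lower in both was not computed. Both comparisons used the same embryo libraries. Several of the 13 are known from surface epithelia, among them cldne, a gene of the enveloping layer and periderm, and cldnb, whose promoter is used to label the lateral line primordium. Values of cldne were 0.129, 0.481 and 0.386 CPM in ovary, 2.20, 0.549 and 1.04 CPM in testis and 185, 159 and 147 CPM in embryos. The log2 differences from embryos were -8.94 in ovary (SE 0.53, adjusted p = 1.5e-07) and -7.01 in testis (SE 0.45, adjusted p = 3.7e-07). Every embryo library stood far above every gonad library for this gene.

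Expression of cldni was 0.582, 1.03 and 0.154 CPM in ovary, 3.14, 2.79 and 2.50 CPM in testis and 104, 93.3 and 115 CPM in embryos. It differed from embryos by -7.42 in ovary (SE 0.42, adjusted p = 9.9e-08) and by -5.21 in testis (SE 0.35, adjusted p = 5.1e-07). Further large falls were those of cldnf (-6.73 in ovary and -5.63 in testis) and cldnb (-6.33 in ovary and -7.08 in testis). In testis cldnk, known as a claudin of myelinating glia, was also among the largest falls (-5.44, and -4.57 in ovary). Its counts summed to only 6 over the wild-type ovaries and 5 over the wild-type testes. It failed the filter in the gonad fit and passed here through the embryos, so its direction is not an independent result. Each of cldnf, cldnb and cldnk had adjusted p of 2.3e-04 or less in both comparisons.

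Expression of cldn5a, which in zebrafish is needed for the barrier of the brain ventricles, was 0.775, 1.24 and 1.77 CPM in ovary, 5.64, 4.94 and 4.26 CPM in testis and 84.3, 92.0 and 93.0 CPM in embryos. The 3 tissues did not overlap, and log2 differences from embryos were -6.16 in ovary (SE 0.30, adjusted p = 4.5e-08) and -4.18 in testis (SE 0.26, adjusted p = 3.1e-07). Among the claudins lower in both gonads, the broadest was cldn12, with 44.2, 76.7 and 52.2 CPM in ovary, 43.1, 35.2 and 42.9 CPM in testis and 102, 119 and 112 CPM in embryos. Its log2 differences were -0.94 in ovary (adjusted p = 0.002) and -1.46 in testis (adjusted p = 1.2e-04), smaller than those of cldn5a. Beside these falls, 10 epidermal and periderm genes summed to 1500 to 2910 CPM in ovary, 271 to 412 CPM in testis and 16500 to 20800 CPM in embryos. Of the 10, 9 were lower and 1 higher in ovary, beside 37.2% of all genes lower and 32.6% higher. In testis 10 were lower, beside 32.5% of all genes. The part of these 10 genes in the claudin values was not tested.

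In the row of cldnj, cldne, cldnf and cldna, the 4 neighbours had the same sign in both gonads. They differed in size: cldnj fell by 0.80 on the log2 scale in testis against embryos (adjusted p = 0.0036), cldna by 1.88 (adjusted p = 0.0012), cldnf by 5.63 and cldne by 7.01. For cldn10b, cldn10l2 and cldn15a ovary was lower and testis not called, though cldn10l2 (-2.72, adjusted p = 0.036) lost its call whichever of the 6 libraries was left out (adjusted p of 0.055 to 0.1). The gene cldnd1a was higher in ovary and lower in testis than in embryos. For cldn8 and cldn10a neither gonad passed.

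Other tight junction genes were read from a list of 52 symbols, 41 of them in the table. In testis against ovary 8 were higher and 22 lower of 41 tested, beside 41.6% of all genes higher and 28.9% lower. The occludin genes, which encode tight junction membrane proteins outside the claudin family, were among the falls, with log2 differences of -4.83 for oclna (adjusted p = 2.4e-08) and -6.94 for oclnb (adjusted p = 1.5e-07). The adhesion molecule gene jam3a was higher in testis, at 2.96 (adjusted p = 6.3e-06). In ovary against embryo 16 were higher and 14 lower, beside 32.6% of all genes higher and 37.2% lower, and oclna was higher there at 2.54 (adjusted p = 1.2e-06). In testis against embryo 3 were higher and 26 lower, beside 34.4% of all genes higher and 32.5% lower, with oclna at -2.30 (adjusted p = 3.4e-06) and jam3a at 3.24 (adjusted p = 3.8e-06).

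In embryos, 1 claudin, cldna, was lower after the injection of kctd15 when the effect was averaged over 3 backgrounds, namely no AP2, AP2 and AP2-P59. That was 1 of 28 tested members, and 0.525% of all genes changed (0.448% lower). With replicate number as a block, 298 genes were called in place of 117, and cldna was again the 1 claudin. Expression of cldna was 20.8, 23.7 and 19.1 CPM after kctd15 alone, against 28.3, 41.5 and 32.9 CPM in wild-type embryos. It was 20.4, 15.9 and 17.9 CPM after AP2 with kctd15, against 25.9, 44.5 and 29.0 CPM after AP2. It was 33.5, 30.9 and 23.9 CPM after AP2-P59 with kctd15, against 37.7, 36.9 and 38.4 CPM after AP2-P59. Within each background all libraries with kctd15 lay below all libraries without it.

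Averaged over the 3 backgrounds, cldna fell by 0.64 on the log2 scale (SE 0.11, edgeR adjusted p = 0.0059). It was lower in 9 of 9 same-numbered pairs, which follows from the lack of overlap within each background and adds nothing to it. The 9 libraries with kctd15 ran from 15.9 to 33.5 CPM with a median of 20.8 CPM, and the 9 without it from 25.9 to 44.5 CPM with a median of 36.9 CPM. In the separate backgrounds the log2 change was -0.70 (SE 0.19, adjusted p = 0.82) for kctd15 alone, -0.88 (SE 0.19, adjusted p = 0.079) with AP2 and -0.36 (SE 0.19, adjusted p = 1) with AP2-P59, none of which passed. With replicate number as a block, the change with AP2 was -0.85 and passed (adjusted p = 0.018). The difference between the effects with AP2 and with AP2-P59 was -0.52 (SE 0.27, adjusted p = 1), so that unequal effects were not shown.

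The library with the highest cldna of the 9, AP2-P59 with kctd15 replicate 1, had 0 estimated counts of a kctd15a transcript. The labels do not say that this transcript was the one injected. The other kctd15-injected libraries had 171 to 731 counts of it. The embryos of wild-type genotype without kctd15 had 0 to 34.1, and the mutants had 121, 0 and 52.5. The part of these counts in the cldna values was not tested. Without AP2-P59 with kctd15 replicate 1 the averaged change of cldna was -0.68 (adjusted p = 0.0045). The chromosomal neighbours of cldna had averaged log2 changes of 0.07 for cldnf, 0.07 for cldne and -0.07 for cldnj, with adjusted p of 1 each.

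**Figure D2:**
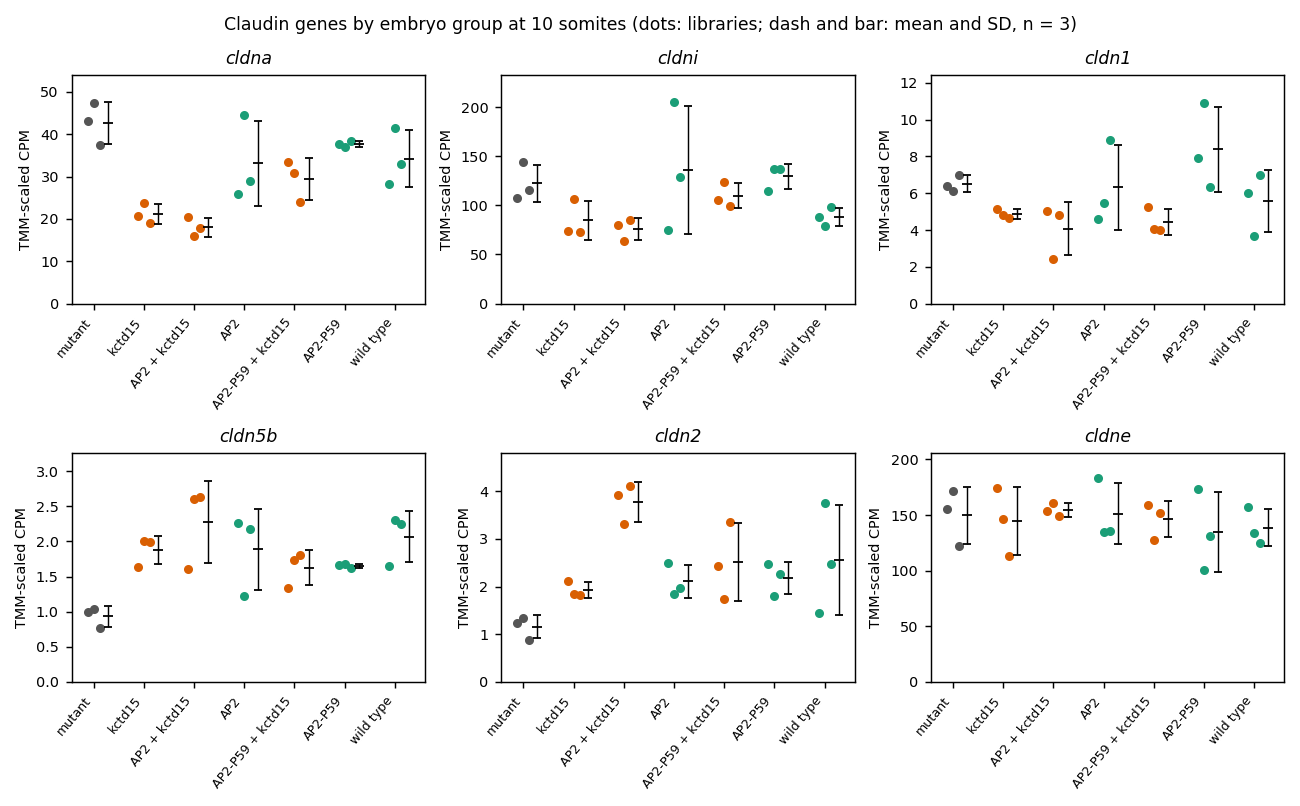
TMM-scaled CPM of 6 claudin genes in the 7 embryo groups at the 10-somite stage, with 3 libraries per group as dots and the mean and SD beside them (orange: kctd15 injected; green: no kctd15; grey: mutant). For cldna the orange dots lie below the green dots of the same background, and for cldn5b and cldn2 the grey mutant dots lie below the wild-type dots.

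Of 10 epidermal and periderm genes, 2 passed in the averaged contrast, both lower: the keratin genes krt17 at -2.30 (adjusted p = 5.2e-04) and krt92 at -1.49 (adjusted p = 0.0015). The log2 change was below 0 in 10 of 10, with a median of -0.36 (all genes, 0.01). The summed level of the 10 was 11300 to 13800 CPM after kctd15 alone, against 14000 to 17700 CPM in wild type. With AP2 it was 9360 to 12300 CPM with kctd15, against 14300 to 18900 CPM without. With AP2-P59 it was 9990 to 15400 CPM with kctd15, against 13100 to 17900 CPM without, and these ranges overlapped. Of 5 neural crest genes 4 passed in the averaged contrast, all lower, beside 0.448% of all genes lower. The log2 change was below 0 in 5 of 5, with a median of -0.85. The part of either in the change of cldna was not tested. In mutants the epidermal sums were 19300 to 26300 CPM, and cldna had 43.2, 47.3 and 37.4 CPM, which overlapped with wild type (0.31, adjusted p = 0.37).

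The other 27 tested claudins did not pass in the averaged contrast, and the claudin median was -0.04, beside 0.01 for all genes. Next in order of p came cldn1, whose mammalian counterpart is needed for the skin barrier, with -0.58 (SE 0.17, adjusted p = 0.25) and a lower value in 7 of 9 pairs. For cldnk the averaged change was -0.46 (adjusted p = 0.36, lower in 8 of 9 pairs), for cldn10a -0.94 (adjusted p = 0.43) and for cldni -0.38 (adjusted p = 0.56). Lower in 7 of 9 pairs were also cldn10a, cldn15a, cldni and cldnj. The other way, cldn11b and cldn15b were higher in 8 of 9 pairs, and cldnc and cldn20 in 7 of 9. The share of all genes with such pair counts was not computed. The gene cldni is one of the 5 with most counts in wild-type embryos, and the other 4 had smaller log2 changes, of -0.08 for cldn7b, 0.07 for cldne, 0.01 for cldn12 and 0.11 for cldn5a, each with an SE of 0.07 to 0.11. The summed claudin counts were 813 ± 76 CPM before TMM scaling after kctd15, against 804 ± 5.6 in wild type. They were 824 ± 41 after AP2 with kctd15, against 919 ± 140 after AP2, and 863 ± 83 after AP2-P59 with kctd15, against 864 ± 70 after AP2-P59.

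In single contrasts of injected embryos 0 of 28 claudins passed. For kctd15 against wild type 0.0% of all genes passed without replicate number as a block. With the block 0 claudins passed, and the share of all genes is not given. At an unadjusted p under 0.05 there were 5 of 28 claudins, beside 3.42% of all genes. After cldna the smallest p values belonged to cldnc, at 9.59, 11 and 6.74 CPM against 3.95, 4.70 and 5.84 CPM in wild type (log2 0.91, adjusted p = 1), and to cldn20, a low-level gene (1.59, adjusted p = 1). The kctd15 and wild-type libraries did not overlap for 7 claudins, 4 higher and 3 lower, beside 7.77% of all genes.

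With AP2, kctd15 gave 0 calls among the claudins by edgeR, beside 0.197% of all genes called, and 1 by DESeq2 (cldna, adjusted p = 0.0059). The share of all genes called by DESeq2 is not given. With replicate number as a block edgeR called 143 genes in place of 44, cldna among them. At an unadjusted p under 0.05 there were 6 of 28 claudins, beside 5.18% of all genes. For cldni the libraries had 79.7, 63.4 and 85.4 CPM after AP2 with kctd15, against 75.1, 205 and 129 CPM after AP2, and overlapped (-0.84, SE 0.25, adjusted p = 0.32). The change of cldni was -1.13 and passed (adjusted p = 0.036) without AP2 replicate 1, the lowest of its group, and was -0.42 (adjusted p = 0.99) without AP2 replicate 2, the highest. For cldn2 the values were 3.93, 3.31 and 4.11 CPM after AP2 with kctd15, against 2.50, 1.85 and 1.98 CPM after AP2, with no overlap (0.84, SE 0.31, adjusted p = 0.66). The groups did not overlap for 5 claudins, beside 8.52% of all genes.

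With AP2-P59, kctd15 gave 0 calls among the claudins by edgeR, by DESeq2 and with replicate number as a block. By edgeR without the block 0.0% of all genes were called, and the shares by DESeq2 and with the block are not given. At an unadjusted p under 0.05 there was 1 of 28, beside 4.06% of all genes. That gene was cldn1, at 5.24, 4.04 and 3.99 CPM after AP2-P59 with kctd15, against 7.92, 10.9 and 6.33 CPM after AP2-P59 (-0.92, SE 0.30, adjusted p = 1). Here 3 claudins, cldn1, cldna and cldn10a, were lower without overlap, beside 7.91% of all genes.

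For neither AP2 form did a claudin pass against wild-type embryos by edgeR, by DESeq2 or with replicate number as a block. By edgeR without the block 0.0% of all genes were called for each, and the shares by DESeq2 and with the block are not given. At an unadjusted p under 0.05 AP2 had 3 of 28 claudins, beside 3.34% of all genes, and AP2-P59 had 2 of 28, beside 5.38% of all genes. Both comparisons use the same wild-type libraries. Levels of cldni were 75.1, 205 and 129 CPM after AP2 and 115, 137 and 137 CPM after AP2-P59, against 88.2, 78.8 and 97.9 CPM in wild type, with log2 changes of 0.63 (adjusted p = 1) and 0.55 (adjusted p = 0.92). The AP2-P59 libraries lay above all wild-type libraries, and the AP2 libraries overlapped with them. For cldn20 the changes were 1.43 after AP2 and 1.56 after AP2-P59 at levels under 1 CPM, for cldnh 0.46 after AP2, and for cldn1 0.59 after AP2-P59. Replicates did not overlap for 3 claudins after AP2 (6.66% of all genes) and for 7 after AP2-P59 (9.91% of all genes).

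In kctd15 mutant embryos 1 of 28 claudins passed, cldn5b, which was lower, beside 4.09% of all genes changed (2.73% lower). With replicate number as a block, 2931 of 22305 genes were called in place of 912, and 2 claudins, cldn5b and cldn2. Claudin-5 is a main component of the tight junctions of brain vessels. Expression of cldn5b was 0.997, 1.04 and 0.767 CPM in mutants, against 1.65, 2.30 and 2.25 CPM in wild type, and the groups did not overlap. The log2 change was -1.14 (SE 0.30, edgeR adjusted p = 0.036). The call was lost when any mutant library or wild-type replicate 2 or 3 was left out (adjusted p of 0.08 to 0.16) and in a fit of the 2 compared groups (adjusted p = 0.088). Of 5 vessel genes 4 passed the low-count filter, and of these 4 tested genes 0 were called, with a median change of -0.11. The 5 vessel genes summed to 48.0 to 58.5 CPM in mutants and 44.5 to 67.1 CPM in wild type. Of the 5, pecam1 was at 0 in all mutants, which by itself does not show a loss of vessel expression. The part of the vessel genes in the change of cldn5b was not tested.

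Next in order, cldn2 had 1.23, 1.35 and 0.885 CPM in mutants, against 1.45, 3.75 and 2.47 CPM in wild type, a log2 change of -1.15 (SE 0.33, adjusted p = 0.052) that passed with replicate number as a block (-1.16, adjusted p = 0.029) and by DESeq2 (adjusted p = 0.028). The mutants were below every wild-type library for cldn2, cldn5b, cldn8 (-0.83, adjusted p = 0.20), cldnk (-0.57, adjusted p = 0.22), cldn11b, cldnj and cldn17. For cldn11b the values were 42.2, 37.4 and 34.5 CPM in mutants, against 45.3, 44.0 and 43.1 CPM in wild type. The mutants were above every wild-type library for cldnc, cldn7b and cldni. For cldni they had 108, 144 and 116 CPM against 88.2, 78.8 and 97.9 CPM (0.47, SE 0.25, adjusted p = 0.30). Levels of cldn10a were 0.821, 1.96 and 1.3 CPM in mutants, against 0.857, 0.336 and 0.449 CPM in wild type, and overlapped. With single libraries left out its log2 change ran from 0.96 to 1.78, with edgeR adjusted p of 0.094 to 0.41. At an unadjusted p under 0.05 there were 5 of 28 claudins, beside 19.8% of all genes. The groups did not overlap for 10 claudins, 3 higher and 7 lower, beside 26.3% of all genes.

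Of the other claudins with most counts, cldn7b had 162, 197 and 166 CPM in mutants, against 158, 160 and 128 CPM in wild type, without overlap (0.24, adjusted p = 0.43), and log2 changes were 0.11 for cldne (adjusted p = 0.80), -0.14 for cldn12 (adjusted p = 0.57) and -0.12 for cldn5a (adjusted p = 0.60), all 3 with overlap. The claudin median was -0.07 and that of all genes -0.01. Of the 40 other tight junction genes tested 2 passed in mutants, beside 4.09% of all genes. Both were lower: jam3a at -1.03 (SE 0.27, adjusted p = 0.039) and crb1, an apical polarity gene, at -1.12 (SE 0.30, adjusted p = 0.043). None of the 40 passed in the comparisons of injected embryos, where 0.0% to 0.525% of all genes passed. Beside the claudin values, 1 of 10 epidermal genes passed in mutants, the keratin gene cyt1, which was higher at 0.84 (adjusted p = 0.048).

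**Figure D3:**
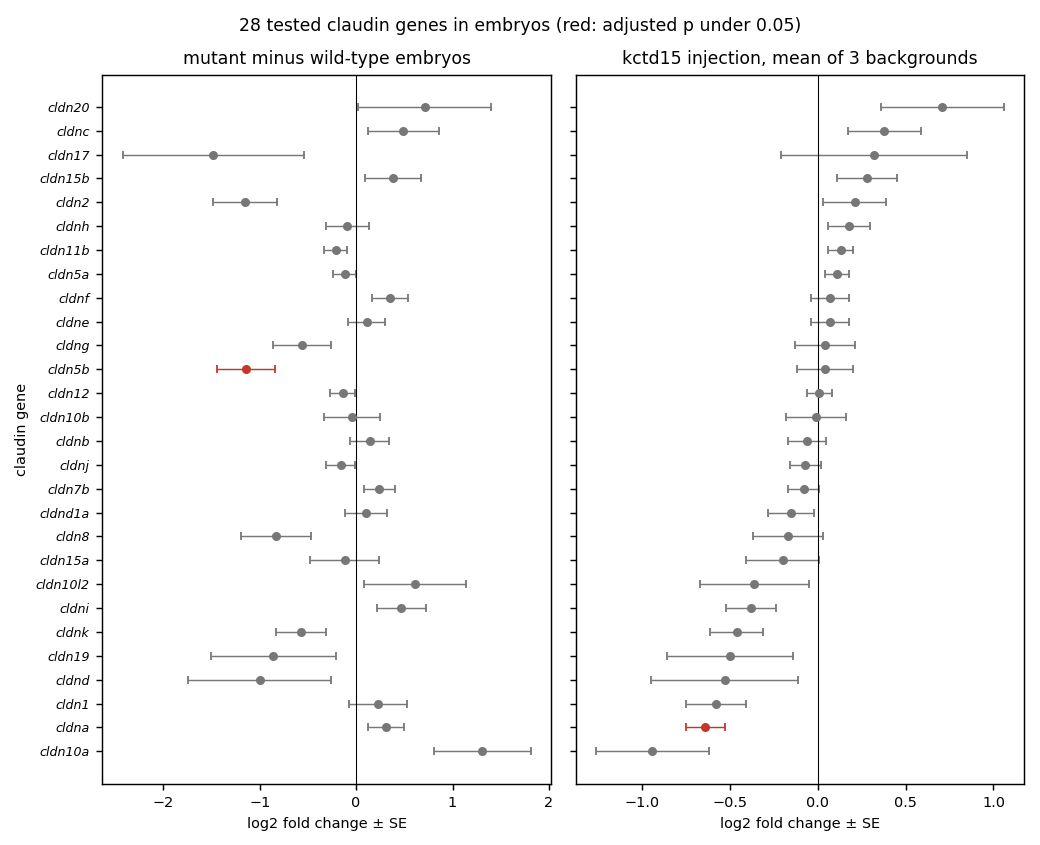
Log2 fold change with its SE for the 28 tested claudin genes in mutant against wild-type embryos (left) and for kctd15 injection averaged over 3 backgrounds (right). Red marks an adjusted p under 0.05: cldn5b at -1.14 on the left and cldna at -0.64 on the right; all other members are grey.

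In mutant ovary 0 of 29 claudins passed by edgeR, beside 0.553% of all genes, and DESeq2 called 1, cldnc (adjusted p = 0.014). The share of all genes called by DESeq2 is not given. At an unadjusted p under 0.05 there were 8 of 29, beside 14.8% of all genes. Expression of cldnc was 7.79, 8.88 and 31.2 CPM in mutant ovary, against 1.77, 5.33 and 2.69 CPM in wild-type ovary. All mutants lay above all wild types, and replicate 3 was far above the other mutants (log2 2.29, SE 0.66, adjusted p = 0.16). Without mutant replicate 3 the change was 1.35 (adjusted p = 0.34).

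The same library stood apart for cldn15la and cldn15lb. Expression of cldn15la, used in zebrafish as a marker of gut epithelium, was 0, 0.122 and 17.0 CPM in mutant ovary, against 0, 0.0731 and 0.163 CPM in wild-type ovary. Its log2 change was 6.13 (SE 1.94, adjusted p = 0.19) with that library and -0.11 (adjusted p = 1) without it. Its paralog cldn15lb, which was not tested, had 0.0885, 0.0612 and 21.6 CPM in mutant ovary, against 0.545, 0.0731 and 0.0814 CPM in wild-type ovary. Beside this, 4 gut and liver genes summed to 21.6, 32.1 and 4890 CPM in mutant ovary, against 121, 23.5 and 14.0 CPM in wild-type ovary. In mutant replicate 3, fabp2 reached 145 CPM and the liver gene tfa 4410 CPM. Their part in the cldnc, cldn15la and cldn15lb values was not tested.

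Of the ovary pair, cldnd had 1080, 1320 and 1320 CPM in mutant ovary, against 1330, 1540 and 1750 CPM in wild-type ovary, narrowly without overlap (-0.31, SE 0.39, adjusted p = 0.78). For cldng the change was 0.11 (SE 0.39, adjusted p = 0.94). Together they held 85.6% ± 1.4 of claudin counts in mutant ovary and 87.8% ± 2.2 in wild-type ovary (SD, n = 3 each). Levels of cldn7b were 205, 286 and 249 CPM in mutant ovary, against 158, 181 and 152 CPM in wild-type ovary, without overlap (0.59, SE 0.26, adjusted p = 0.32). For cldn8 they were 0.265, 0.367 and 0.229 CPM in mutant ovary, against 1.02, 0.512 and 1.38 CPM in wild-type ovary, without overlap (-1.72, adjusted p = 0.20). Values of cldn11a were 55.8, 21.4 and 54.6 CPM in mutant ovary, against 93.6, 126 and 46.7 CPM in wild-type ovary, and overlapped (-1.01, adjusted p = 0.28). The others with an unadjusted p under 0.05 were cldn15a (2.13), cldn17 (-1.35) and cldn2 (-0.96). Without mutant replicate 3, the library with gut and liver genes, cldn15a was 1.11 (adjusted p = 0.54) and cldn2 was -1.67 (adjusted p = 0.073). For 5 tested claudins the groups did not overlap, 2 higher and 3 lower, beside 15.3% of all genes. The 6 genes of gonad support and steroid cells summed to 29.2 to 84.8 CPM in mutant ovary, against 98.5 to 191 CPM in wild-type ovary. The 5 genes of spermatogenic cells summed to 198 to 230 CPM, against 114 to 167 CPM. In both lists 0 genes passed, beside 0.553% of all genes, and the part of the lists in the claudin values was not tested.

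**Figure D4:**
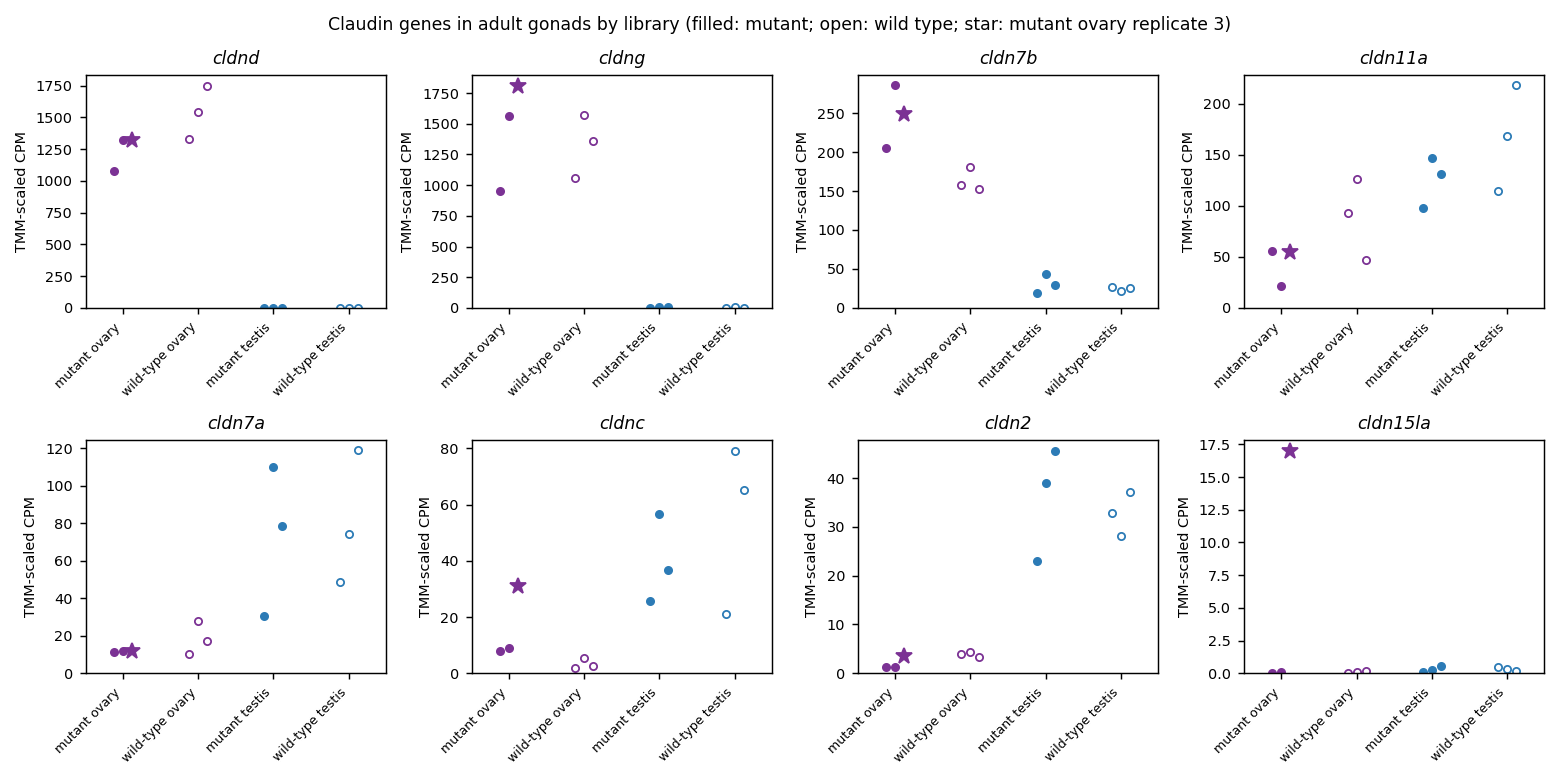
TMM-scaled CPM of 8 claudin genes in mutant and wild-type ovary (purple) and testis (blue), 1 symbol per library, filled for mutant and open for wild type. The star is mutant ovary replicate 3, which stands alone for cldn15la at 17.0 CPM and is the highest ovary for cldnc at 31.2 CPM.

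In mutant testis 0 of 29 claudins passed by edgeR and by DESeq2, beside 0.0696% of all genes called by edgeR. At an unadjusted p under 0.05 there was 1 of 29, beside 7.01% of all genes. That gene was cldn10l2, at 1.56, 2.92 and 2.52 CPM in mutant testis, against 0.0459, 0.388 and 1.11 CPM in wild-type testis, without overlap (2.16, SE 0.83, adjusted p = 0.58). The next were cldne at -1.20 (adjusted p = 0.77) and cldni at 1.07, 1.38 and 1.55 CPM, against 3.35, 2.96 and 2.67 CPM in wild-type testis (-1.16, SE 0.65, adjusted p = 0.80). The 5 members with most counts in wild-type testis did not pass and overlapped between the groups, with log2 changes of -0.42 for cldn11a (SE 0.41), -0.14 for cldn7a (SE 0.45), -0.47 for cldnc (SE 0.61), 0.02 for cldn12 (SE 0.24) and 0.13 for cldn2 (SE 0.39). Groups did not overlap for 2 claudins, beside 15.8% of all genes. The 6 genes of gonad support and steroid cells summed to 926 to 1510 CPM in mutant testis, against 1550 to 2500 CPM in wild-type testis. Of the 6, 0 passed, and their part in the claudin values was not tested.

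The difference of the mutant effect between testis and ovary passed for 0 of 29 claudins by edgeR and DESeq2, beside 0.0812% of all genes. At an unadjusted p under 0.05 there were 2 claudins of 29, beside 10.9% of all genes. It was -2.76 for cldnc (adjusted p = 0.33), the claudin with the smallest p there. In the mutant gonads 0 of 41 other tight junction genes passed in either organ, beside 0.553% of all genes in ovary and 0.0696% in testis.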

How the data were processed

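PolyA RNA was sequenced from 33 libraries in 11 groups of 3. Per the submitters' processing notes, Trimmomatic 0.36, kallisto 0.43.0, edgeR and GRCz10 were used. The authors deposited expected counts (estimated, not whole) for 30490 genes and 54435 transcripts, and a signal table of normalized CPM for 25374 genes, in which 4 claudins are absent and which served as an alternative only. Gene counts were rounded and tested in edgeR 4.0.16 (R 4.3.3, TMM, filterByExpr with minimum count 10 and minimum total 15, robust quasi-likelihood F tests, two-sided, Benjamini-Hochberg over all genes): 22305 genes in 21 embryo libraries, 25870 in 12 gonad libraries and 25039 in 9 wild-type libraries. The SE is the absolute log2 change divided by the square root of F. Scripts were tested on simulated counts.

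Named claudins are those called in a comparison (where over 8, the 4 largest changes each way with a mean of at least 1 CPM), otherwise the 3 with the smallest p, and the 5 with the highest mean in each wild-type tissue. Other members named were chosen after their values were seen. Members and lists were chosen with earlier results of these data known. Same-numbered embryo libraries deviated together (correlations of 0.12 to 0.62 in the contrasts taken as paired: mutant, kctd15 and AP2 against wild type and both co-injections). Alternatives were RLE scaling, no filter, DESeq2 1.42.0, limma 3.58.1 on log2(CPM + 1), a replicate block, the compared groups only and leaving out each library. Of the 33 symbols, 29 matched RefSeq (GRCz12tu) by symbol and 4 by synonym; coordinates are not given because builds differ. Intervals from 0 counts cover counting error only.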

Additional observations from a re-analysis of the deposited data

How the results depend on the processing

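In mutant embryos the number of claudins called, 1 (cldn5b), was 0 with no low-count filter and with the compared groups only, 2 by DESeq2 and 2 with replicate number as a block, and 0 to 2 when single libraries were left out. For AP2 with kctd15 against AP2 it was 0, and 1 by DESeq2, 1 with the replicate block and 0 to 2 with single libraries left out. In mutant ovary it was 0, and 1 by DESeq2. Claudin counts by DESeq2 stand here without the share of all genes called by it. The averaged kctd15 effect gave 1 call (cldna) in all 23 alternatives, with log2 changes of -0.69 to -0.55 and adjusted p of 1.8e-05 to 0.017. The number called was 18 to 20 in testis against ovary, 21 to 23 in ovary against embryo and 22 to 24 in testis against embryo, and the block changed no other claudin count by over 1.5 times. In testis against ovary, leaving out ovary replicate 2 or 3 or testis replicate 1 or 2 ended the calls of cldn1 (adjusted p up to 0.15) and cldn17 (up to 0.14), and leaving out ovary or testis replicate 1 ended that of cldne (up to 0.13). Signs turned in 25 cases, none of them a change that had passed. With single libraries left out, the log2 change ran from -0.11 to 7.07 for cldn15la (-0.11 without mutant replicate 3) and from -0.09 to 0.33 for cldng in mutant ovary. In mutant testis it ran from -0.55 to 0.25 for cldn7a and from -0.07 to 0.37 for cldn2. For cldn12 in the averaged kctd15 effect it ran from -0.03 to 0.04. In testis against ovary it ran from -0.7 to 0.58 for cldn10a and from -0.25 to 0.39 for cldn8, in ovary against embryo from -0.57 to 0.77 for cldn10a, and in testis against embryo from -0.34 to 0.45 for cldn10a and from -1.42 to 0.83 for cldnd. In this last comparison cldn10a was also -0.01 with no filter, -0.01 on the authors' CPM and -0.11 with the replicate block. The cause was not tested. The median of all genes in testis against ovary was 0.72 with TMM, 0.71 with RLE and 0.38 on the authors' CPM. For members under 1 CPM the depth limits what can be seen.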
